A study of Mus musculus with 31 samples.

Results

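Podocyte genes were followed in bulk RNA-seq of mouse kidney, as the 8 genes Nphs1, Podxl, Wt1, Synpo, Ptpro, Cdkn1c, Magi2 and Kirrel. The members were chosen by symbol from the 23509 genes with counts, and all 8 passed the filter on low counts that left 15185 genes for testing. The 31 libraries came from kidneys of male mice harvested at 30 weeks of age. The Pcy/CD1 mice carry the recessive pcy mutation, which causes slowly progressing polycystic kidney disease, and both Pcy/CD1 groups share it. Of these, 12 received subcutaneous PBS and 14 received subcutaneous RGLS4326 at 25 mg per kg monthly from 5 to 30 weeks of age. RGLS4326 is a short chemically modified oligonucleotide directed against the microRNA miR-17. The PBS injections are given as weekly in the sample labels, and the accompanying protocol reads as monthly. The 5 wild-type (WT) mice were CD1 mice that received no injection, so the mutation, the injections and the source of the animals cannot be told apart in comparisons with WT. The comparisons ask how podocyte transcripts differ between polycystic and WT kidneys, and whether they differ with RGLS4326.

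Podocytes are the epithelial cells that wrap the glomerular capillaries and carry out filtration together with the endothelium and the shared basement membrane. Their interlocking foot processes are joined by the slit diaphragm, a junction built around nephrin and the nephrin-like NEPH proteins. The foot processes are held by an actin cytoskeleton, the cell surface carries a sialic acid-rich coat, and the mature state depends on transcription factors such as WT1 and on cell-cycle arrest. Among the members, Nphs1 encodes nephrin, Kirrel encodes NEPH1, and Magi2 encodes a scaffold protein that binds nephrin. Podxl encodes podocalyxin, the main protein of the surface coat, which capillary endothelium also makes. Synpo encodes the actin-binding synaptopodin, and Ptpro encodes the podocyte receptor tyrosine phosphatase GLEPP1. Wt1 encodes the transcription factor of that name, and Cdkn1c encodes the cell-cycle inhibitor p57.

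The mature miR-17 family and the places where its seed pairs with the members are shown first, because RGLS4326 acts on this family and a seed match marks a transcript that could be bound. In mmu-miR-17-5p, from chromosome 14 (chr14:115043684-115043706 of GRCm38.p6, plus strand, RefSeq), bases 2 to 8 in capitals are the seed, and the relatives miR-20a, miR-20b, miR-93, miR-106a and miR-106b have the same seed letters. In the other sequences, read from GENCODE vM21 transcripts of GRCm38, the capitals are the letters GCACTTT that pair with that seed.
mmu-miR-17-5p: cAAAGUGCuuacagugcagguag
Ptpro, chr6:137462970-137462996, plus strand: ctgtaaaaatGCACTTTctttctccac
Magi2, chr5:20703607-20703633, plus strand: ctcttcatttGCACTTTgacaaagtat
Kirrel, chr3:87082150-87082176, minus strand: aagtctctaaGCACTTTgaatctagca
Each of these 3 members held 1 match in the last exon, within the longest annotated 3′ untranslated region, which measured 1153 bases in Ptpro, 2666 bases in Magi2 and 4551 bases in Kirrel. The other 5 members held no GCACTTT on the transcribed strand of that region. GCACTTT occurred in 11.7% of the 21028 genes with an annotated region, and GCACTTTA, the same letters followed by A, in 3.5%. The partly overlapping CACTTTA occurred in 11.7% and in 0 of the 8 members. These matches are letters in a sequence and were not measured as binding.

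Between 14892524 and 27459962 counts fell on genes per library (WT median 19961466, PBS 20562148, RGLS4326 19898000.5). Levels are given as counts per 1000000 (CPM), with library sizes scaled by edgeR's TMM factors, which were 0.818 to 0.854 in WT, 1.004 to 1.165 with PBS and 0.890 to 1.08 with RGLS4326. Without those factors the median gene stood 0.35 higher on the log2 scale in PBS than in WT and 0.11 lower with RGLS4326 than with PBS, so the values below are relative to the median gene. The library labelled RGLS4326 mouse 9 stood apart from its group and close to WT. It read 2.76 CPM for the tubular injury gene Lcn2, against 126 to 607 CPM in the other 13 RGLS4326 mice and 0.944 to 11.2 CPM in WT. Differences of that group are therefore also given without it. WT mice 3 and 4 were the most alike WT pair (chi-square per gene 2.44 against 14.1 or more in the other WT pairs). They differed by more than sampling noise, which cannot show whether they were separate animals. Following the labels, they were counted as separate mice. In bulk kidney, fewer podocytes and less RNA per podocyte cannot be told apart.

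The podocyte signal was present in every library. Nphs1 rested on 255 to 688 reads per library, Podxl on 1762 to 3945, and Wt1, the least covered member, on 45 to 223. Per kilobase of annotated exon, Podxl had the highest level in WT, at 27.1 ± 5.61 CPM per kb (SD, n = 5), followed by Cdkn1c at 9.02 ± 2.55 CPM per kb. Nphs1 followed at 3.62 and Synpo at 3.53 CPM per kb, and the ranges of this pair overlapped. Ptpro stood at 1.78 ± 0.348, Kirrel at 1.19 ± 0.116, Magi2 at 0.826 ± 0.102 and Wt1 at 0.565 ± 0.0932 CPM per kb. In the PBS group the order of the lower genes differed. Kirrel stood at 3.53 ± 0.859 CPM per kb (SD, n = 12), next to Nphs1 at 3.10 ± 0.569 and above Ptpro at 2.47 ± 0.473 CPM per kb, and its range overlapped that of Nphs1. Wt1 stood at 1.19 ± 0.291 CPM per kb and above Magi2, at 0.495 ± 0.0671 CPM per kb, in 12 of 12 PBS mice, whereas Magi2 stood above Wt1 in 5 of 5 WT mice.

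The nephrin and podocalyxin transcripts, which are the classical markers of podocytes and their surface coat, were not called different between any of the groups. Nphs1 (chr7:30458315-30487223, GRCm38, plus strand) read 19.7, 16.6, 32.4, 29.2 and 21.98 CPM in WT mice 1 to 5. With PBS it ran from 14.9 through a median of 19.9 to 29.0 CPM, and with RGLS4326 from 14.6 through 19.2 to 25.5 CPM. The groups overlapped, and the WT mice were the most spread. The log2 fold change was −0.22 (SE 0.14, adjusted p = 0.144) for PBS against WT and −0.05 (SE 0.10, adjusted p = 0.716) for RGLS4326 against PBS; every adjusted p comes from the quasi-likelihood F test of edgeR, adjusted after Benjamini and Hochberg over the genes tested. An annotated antisense gene lies within Nphs1, and the strand setting of the counting is not given in the sources used here.

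Podxl (chr6:31519488-31563981, minus strand) read 139, 109, 181, 179 and 137 CPM in WT mice 1 to 5. It ran from 100 through 126 to 168 CPM with PBS and from 90.1 through 126 to 155 CPM with RGLS4326, where mouse 9 was the highest. The ranges overlapped between all groups. The log2 fold changes were −0.22 (SE 0.12, adjusted p = 0.106, edgeR) for PBS against WT and −0.04 (SE 0.093, adjusted p = 0.749) for RGLS4326 against PBS. Against WT, RGLS4326 stood at −0.27 (adjusted p = 0.055) with all mice and at −0.29 (adjusted p = 0.0321) without mouse 9. Nphs1 gave −0.28 (adjusted p = 0.0711) in the same comparison and −0.29 (adjusted p = 0.061) without mouse 9. Both genes turned on the scaling, which also moves the median gene, and on single mice. With library totals alone they stood 0.15 higher in PBS than in WT on the log2 scale, where the median gene stood 0.35 higher. Without WT mouse 2, which had the lowest level of both, they passed the threshold against PBS at −0.33 for Nphs1 (adjusted p = 0.0378, edgeR) and −0.31 for Podxl (adjusted p = 0.0295, edgeR). Podxl also passed there without PBS mouse 6 (−0.27, adjusted p = 0.0496, edgeR). For RGLS4326 against WT, Nphs1 passed without RGLS4326 mouse 3 or 12 (adjusted p = 0.0447 and 0.0492, edgeR). Podxl passed there without RGLS4326 mouse 2, 3, 9 or 12 (adjusted p from 0.0321 to 0.0468, edgeR).

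Another 5 members differed between the kidneys of PBS-treated Pcy/CD1 mice and WT. Kirrel, Wt1, Synpo and Ptpro were higher and Magi2 was lower in Pcy/CD1. With 0.05 as the limit for the adjusted p, 4 of 8 members were higher and 1 lower, where 37.7% of all genes tested were higher and 36.6% lower. With an absolute log2 fold change over 0.5 required as well, 4 members passed, against 42.4% of all genes. The share of all genes whose PBS and WT ranges do not overlap was not computed. The median log2 fold change of the 8 members was 0.39, beside 0.01 over all genes tested.

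Kirrel (chr3:87078593-87174747, minus strand) had the largest difference among the members. It read 7.61, 8.55, 9.23, 9.87 and 9.27 CPM in WT, and ran from 16.1 through 28.2 to 36.3 CPM with PBS. All 12 PBS mice lay above the highest WT mouse. The means were 8.91 ± 0.863 CPM (SD, 5 mice) in WT and 26.4 ± 6.41 CPM (SD, 12 mice) with PBS, a log2 fold change of 1.57 (SE 0.20, adjusted p = 5.61e-08, edgeR) or 2.96-fold. With RGLS4326 it ran from 10.9 through 20.7 to 31.1 CPM (mean 20.5 ± 5.09, SD, n = 14), and all 14 mice were above the WT range, mouse 9 the closest to it. The log2 fold change of RGLS4326 against WT was 1.20 (adjusted p = 4.78e-06, edgeR), and 1.26 (adjusted p = 3.35e-07) without mouse 9.

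Wt1 (chr2:105126529-105173616, plus strand) read 2.65, 3.27, 4.08, 3.51 and 3.97 CPM in WT. It ran from 4.77 through 7.17 to 10.01 CPM with PBS, with no overlap with WT. With RGLS4326 it ran from 3.12 through 6.64 to 10.1 CPM, and 13 of 14 mice were above the WT range; mouse 9 was within it. Its log2 fold change was 1.08 (SE 0.22, adjusted p = 6.03e-05, edgeR) for PBS and 0.91 (SE 0.21, adjusted p = 0.000578) for RGLS4326 against WT, the latter 0.97 (adjusted p = 8.81e-05) without mouse 9.

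Synpo (chr18:60593973-60660142, minus strand) read 26.7, 28.8, 41.4, 36.6 and 35.0 CPM in WT. It ran from 45.04 through 70.4 to 84.5 CPM with PBS, all above WT, and from 37.4 through 52.2 to 80.3 CPM with RGLS4326, where 12 of 14 mice were above WT. In log2 terms the difference was 0.95 (SE 0.17, adjusted p = 1.07e-05, edgeR) for PBS and 0.68 (SE 0.17, adjusted p = 0.00072) for RGLS4326 against WT, the latter 0.72 (adjusted p = 0.000272) without mouse 9.

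Ptpro (chr6:137252319-137463233, plus strand) moved in the same direction with a smaller size. It read 10.9, 8.67, 14.9, 12.7 and 12.8 CPM in WT, 12.03 through 15.6 to 22.7 CPM with PBS and 11.4 through 15.7 to 19.1 CPM with RGLS4326. In each Pcy/CD1 group 8 mice were above the highest WT mouse, and the ranges overlapped. Against WT, the log2 fold change was 0.47 (SE 0.15, adjusted p = 0.0044, edgeR) for PBS and 0.34 (SE 0.14, adjusted p = 0.0383) for RGLS4326, the latter lost without WT mouse 1 (adjusted p = 0.0881, edgeR) or WT mouse 2 (adjusted p = 0.151, edgeR) and in 4 of the 14 fits that each left out 1 RGLS4326 mouse (mouse 1, 2, 7 or 12, adjusted p up to 0.0572). Without mouse 9 it was 0.37 (adjusted p = 0.0217, edgeR).

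Magi2 (chr5:19227036-20704792, plus strand) differed in the opposite direction. It read 9.73, 10.8, 8.28, 10.1 and 8.07 CPM in WT and 4.62 through 5.44 to 7.32 CPM with PBS, so that all 12 PBS mice were below the lowest WT mouse. With RGLS4326 it ran from 4.14 through 5.28 to 9.76 CPM; 13 of 14 mice were below WT and mouse 9 was within the WT range. This gave a log2 fold change of −0.74 (SE 0.13, adjusted p = 1.42e-05, edgeR) for PBS against WT. For RGLS4326 against WT it was −0.73 (SE 0.13, adjusted p = 2.53e-05) with mouse 9 and −0.81 (SE 0.10, adjusted p = 1.09e-07) without it.

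Cdkn1c (chr7:143458339-143461050, minus strand) lay at the threshold. It read 14.6, 11.8, 22.5, 24.0 and 19.0 CPM in WT, 17.5 through 22.6 to 30.5 CPM with PBS and 15.7 through 19.8 to 25.9 CPM with RGLS4326. The WT mice covered most of the range of both Pcy/CD1 groups. The log2 fold change of PBS against WT was 0.32 (SE 0.15, adjusted p = 0.0543, edgeR), and it passed without WT mouse 3 (0.40, adjusted p = 0.0254), without WT mouse 4 (0.43, adjusted p = 0.0157) without PBS mouse 1, 4, 7 or 8 and with DESeq2 (0.32, adjusted p = 0.0492). With library totals alone it was 0.69 (adjusted p = 0.000675), within the first of the 3 index series (runs of library numbers) 0.80 (adjusted p = 0.00863) and within the second 0.0167 (adjusted p = 0.96, edgeR). RGLS4326 against WT gave 0.15 (SE 0.15, adjusted p = 0.353), and 0.16 (adjusted p = 0.335) without mouse 9. It was 0.41 (adjusted p = 0.032) with library totals alone, 0.66 (adjusted p = 0.0223) within the first series and −0.28 (adjusted p = 0.41, edgeR) within the second.

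**Figure D1:**
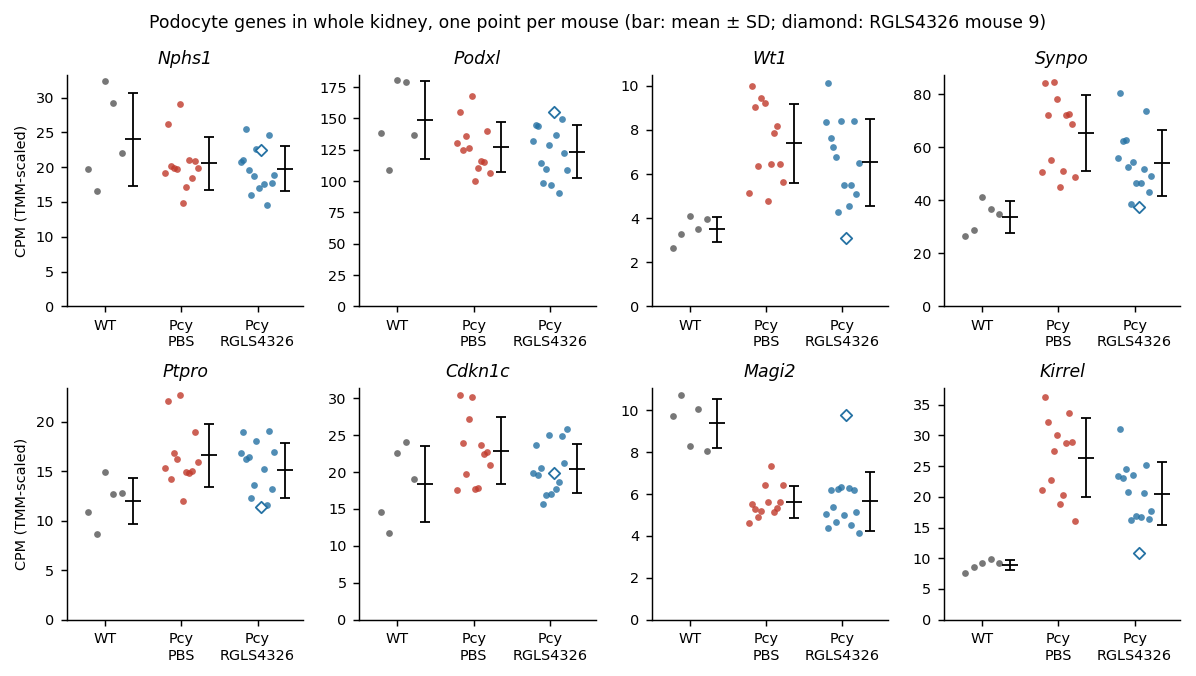
Each panel plots the TMM-scaled CPM of a member on a linear axis from 0, with a point per mouse in WT (n = 5), Pcy/CD1 with PBS (n = 12) and Pcy/CD1 with RGLS4326 (n = 14), the mean ± SD as a bar, and RGLS4326 mouse 9 as an open diamond. Kirrel, Wt1 and Synpo lay above the WT range and Magi2 below it in all 12 PBS mice, and the diamond lay among the WT values of Wt1, Synpo and Magi2. Of all genes tested, 74.3% passed between PBS and WT in edgeR's test, and the share without overlap was not computed.

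The WT mice themselves fell apart by podocyte level. In WT mice 1 and 2, 1 of 8 members was above the WT mean on the log2 scale, and in WT mice 3 and 4 it was 7 and 8 of 8. The numbers in the library names form 3 runs in each group, which are called index series here. WT mice 1 and 2 belong to the first, 3 and 4 to the second and 5 to the third. The PBS mice averaged 21.4, 20.2 and 20.1 CPM for Nphs1 and the RGLS4326 mice 21.7, 19.4 and 18.6 CPM. By series, Kirrel averaged 28.1, 24.2 and 26.9 CPM with PBS and 25.5, 17.6 and 19.3 CPM with RGLS4326. Synpo averaged 65.5, 64.7 and 65.5 CPM with PBS and 65.4, 45.9 and 52.7 CPM with RGLS4326, and Wt1 averaged 7.65, 7.48 and 7.05 CPM and 8.34, 5.61 and 6.02 CPM. In the RGLS4326 mice these 3 genes were thus highest in the first series, and the second holds mouse 9. Within the first series alone, PBS minus WT was 0.24 for Nphs1 (adjusted p = 0.216, edgeR), and within the second it was −0.59 (adjusted p = 0.0628). Kirrel gave 1.80 (adjusted p = 0.000459) in the first and 1.36 (adjusted p = 0.00741) in the second. Synpo gave 1.24 and 0.75 (adjusted p = 0.00124 and 0.0356, edgeR), Wt1 1.37 and 0.99 (adjusted p = 0.0032 and 0.0585), Ptpro 0.81 and 0.28 (adjusted p = 0.00457 and 0.389) and Magi2 −1.01 and −0.56 (adjusted p = 0.000812 and 0.107). The third series holds 1 WT mouse, and no comparison with WT was made within it.

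Levels relative to Nphs1 in the same library do not depend on the scaling between libraries. This measure was chosen after the values were seen and is given as a description. The log2 ratio of Kirrel to Nphs1 was −1.39 ± 0.325 (SD) over 5 WT mice, 0.34 ± 0.304 over 12 PBS mice and 0.03 ± 0.396 over 14 RGLS4326 mice. Wt1, Synpo, Ptpro and Cdkn1c relative to Nphs1 likewise showed no overlap between PBS and WT, with mean ratios higher by 1.25, 1.14, 0.67 and 0.54 on the log2 scale. How often other genes relative to Nphs1 show no overlap was not computed. Podxl relative to Nphs1 was 2.65 ± 0.125 in WT, 2.64 ± 0.118 with PBS and 2.64 ± 0.140 with RGLS4326, and Magi2 relative to Nphs1 overlapped between PBS and WT. The ratio also moves with Nphs1 itself, which was lowest in WT mice 1 and 2 and highest in WT mice 3 and 4.

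**Figure D2:**
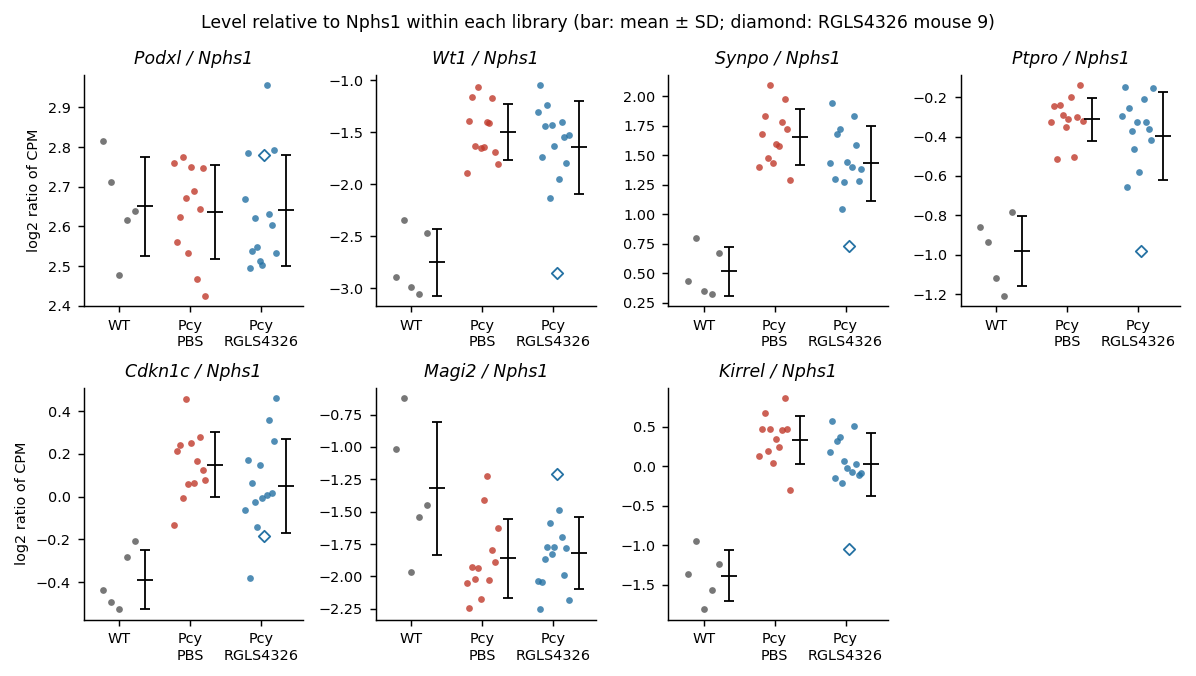
Each panel plots, for every mouse, the log2 ratio of a gene's CPM to that of Nphs1 in the same library, in WT (n = 5), Pcy/CD1 with PBS (n = 12) and Pcy/CD1 with RGLS4326 (n = 14), with the mean ± SD as a bar and RGLS4326 mouse 9 as an open diamond; the axes do not start at 0. Podxl kept a mean ratio of 2.64 to 2.65 in every group, whereas the Kirrel ratio was −1.39 in WT and 0.34 with PBS.

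Between RGLS4326 and PBS the members differed little. The log2 fold change was negative for 7 of 8 members and ran from −0.36 for Kirrel to 0.01 for Magi2, with a median of −0.15 beside −0.0043 over all genes tested. Only Kirrel passed, lower with RGLS4326 by −0.36 (SE 0.13, adjusted p = 0.0498, edgeR), or 0.778-fold. This is 1 of 8 members, where 6.66% of all genes tested were lower and 9.15% higher. With an absolute log2 fold change over 0.5 as well, 0 of 8 members passed, against 2.15% of all genes. The call of Kirrel was marginal. Without RGLS4326 mouse 9 it was −0.31 (SE 0.12, adjusted p = 0.0764, edgeR), and it passed in 9 of the 26 fits that each left out 1 Pcy/CD1 mouse, with adjusted p from 0.0175 to 0.102. Those were the fits without PBS mouse 1, 4, 7, 8 or 12 or RGLS4326 mouse 1, 2, 4 or 12, and without RGLS4326 mouse 2 Synpo passed as well. Within the index series it was −0.14, −0.46 and −0.47, with adjusted p of 1, 0.256 and 0.219 (edgeR). In each of these series 0 genes of all tested passed.

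Synpo had the next largest difference at −0.27 (SE 0.12, adjusted p = 0.0915, edgeR), and −0.24 without mouse 9 (adjusted p = 0.149). Wt1 gave −0.18 (SE 0.15, adjusted p = 0.385), Cdkn1c −0.16 (SE 0.11, adjusted p = 0.266) and Ptpro −0.14 (SE 0.10, adjusted p = 0.334). Without mouse 9 these were −0.12, −0.16 and −0.11 (adjusted p = 0.558, 0.314 and 0.467, edgeR), with −0.07 for both Nphs1 and Podxl (adjusted p = 0.665 and 0.606). Of the 3 members with a miR-17 seed match shown above, Kirrel had the most negative log2 fold change of the 8, Ptpro did not pass, and Magi2 stood at 0.01 (SE 0.10, adjusted p = 0.956). Without mouse 9 Magi2 stood at −0.07 (adjusted p = 0.549). The comparisons of PBS and RGLS4326 with WT share the WT mice, and those with PBS share the PBS mice, so their values are set side by side only.

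Against WT, the RGLS4326 group showed the same 4 members higher (Kirrel, Wt1, Synpo and Ptpro) and 1 lower (Magi2) below the same limit, where 32.5% of all genes tested were higher and 32.4% lower. The median log2 fold change of the 8 members was 0.24 in this comparison. Without mouse 9, 6 members passed, with Podxl as the added one, beside 67.5% of all genes in either direction. Within the first index series Kirrel, Wt1, Synpo, Ptpro, Cdkn1c and Magi2 passed, and within the second 0 of 8 members did. Of all genes tested, 47.3% passed within the first and 2.58% within the second, so the drop was not particular to the members. In the second, Kirrel gave 0.90 (adjusted p = 0.0837, edgeR), Wt1 0.58 (adjusted p = 0.302), Synpo 0.25 (adjusted p = 0.483), Ptpro −0.0306 (adjusted p = 0.938) and Magi2 −0.50 (adjusted p = 0.204).

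**Figure D3:**
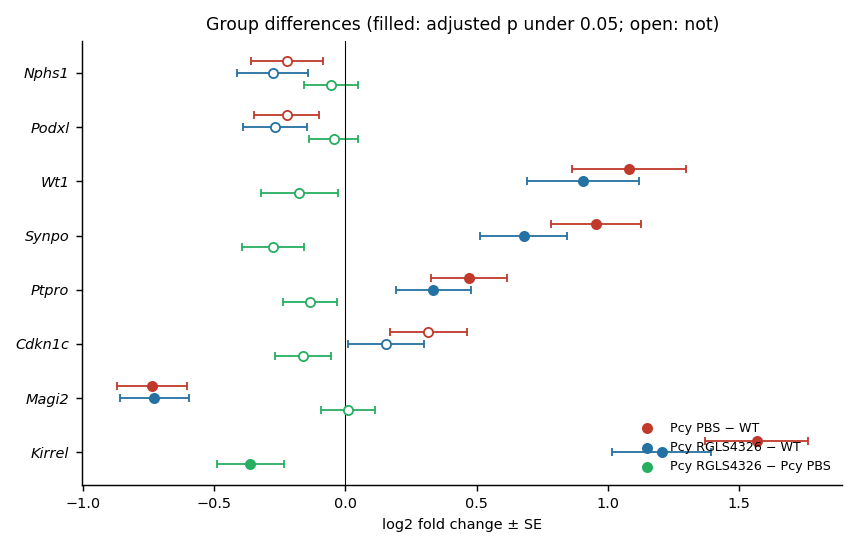
Points give the log2 fold change and bars its SE from edgeR's fit of all 31 mice, for the 8 members in 3 comparisons; filled points passed the limit of 0.05 for the adjusted p. The points for Kirrel, Wt1, Synpo and Ptpro lie right of 0 and those for Magi2 left of 0 in both comparisons with WT, and Kirrel is the only filled point for RGLS4326 against PBS, at −0.36.

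Across mice, with the group means taken off, the members did not move as a single unit. Over the 28 pairs of members, Pearson's r of log2 CPM ran from −0.424 to 0.904 with a median of 0.579, over 31 mice that share library, depth and scaling between the genes. Wt1, Synpo and Kirrel were tightly tied, with r of 0.904 for Wt1 and Synpo, 0.903 for Synpo and Kirrel and 0.899 for Wt1 and Kirrel. Nphs1 and Podxl were tied at 0.879. Between those 3 genes and this pair r was lower, from 0.287 for Podxl and Wt1 to 0.573 for Nphs1 and Synpo, and without RGLS4326 mouse 9 from 0.498 to 0.658 for the same pairs. Ptpro and Cdkn1c lay between, with r from 0.654 to 0.781 with Nphs1 and Podxl and from 0.518 to 0.690 with Wt1, Synpo and Kirrel. Magi2 went with none of them, and its r with the mean of the other members was −0.160. Without RGLS4326 mouse 9, r was 0.511 for Podxl and Kirrel, 0.522 for Nphs1 and Kirrel and −0.173 for Magi2 and Kirrel, in place of −0.424.

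**Figure D4:**
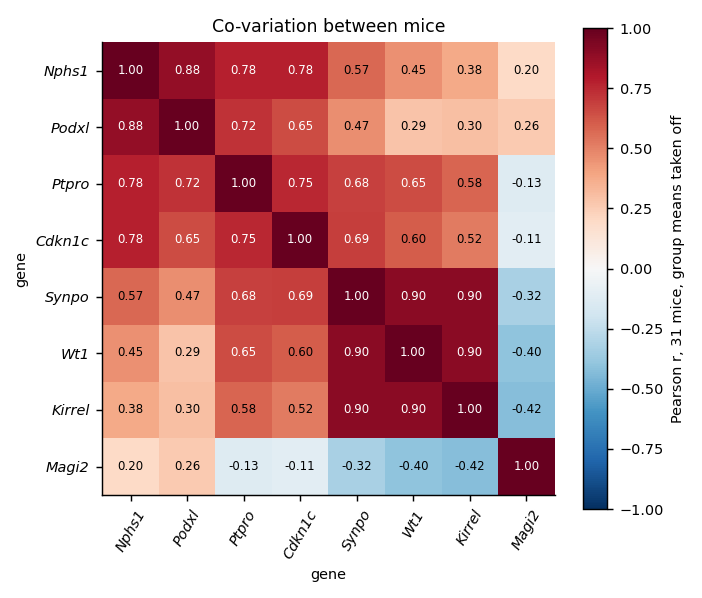
The heat map gives Pearson's r between the log2 CPM of each pair of genes over 31 mice after the mean of each group was taken off, from −1 in blue to 1 in red. Wt1, Synpo and Kirrel have r of 0.90 with each other and Nphs1 and Podxl of 0.88, Ptpro and Cdkn1c run from 0.52 to 0.78 with both sets, and Magi2 has the lowest values, from −0.42 to 0.26.

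Among 13776 other genes whose mean reached 1 CPM, the 10 most like the mean of the 8 members, over 31 mice after group means were taken off, included St3gal1 (r = 0.878), Myom2 (0.866), Heyl (0.831), Npr3 (0.822), 1700025G04Rik (0.819), Ddn (0.818), Tbc1d2b (0.809), Ccnd2 (0.802) and Arhgef17 (0.798). Their group differences were not alike. 1700025G04Rik rose by 1.17 on the log2 scale in PBS against WT (adjusted p = 8.65e-08, edgeR), Heyl by 0.87 (adjusted p = 5.09e-05) and Npr3 by 0.86 (adjusted p = 0.000156), while Ddn, which encodes the slit diaphragm protein dendrin, gave 0.17 (adjusted p = 0.363) and Myom2 0.19 (adjusted p = 0.289). Arhgef17 was lower with RGLS4326 than with PBS by −0.23 (adjusted p = 0.0267, edgeR), and by −0.22 (adjusted p = 0.0412) without mouse 9.

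Markers of other cell types moved in the same kidneys, and their part in the differences of the members was not tested. The summed CPM of 6 fibroblast genes was 107 to 166 in WT, 486 to 1038 with PBS and 194 to 1071 with RGLS4326, where mouse 9 was the lowest. All 6 were higher in PBS than in WT, with a median log2 fold change of 2.42, and Col3a1, a fibrillar collagen, stood at 3.21 (SE 0.33, adjusted p = 4.45e-09, edgeR). Over 31 mice with group means taken off, r with the fibroblast genes was 0.918 for Kirrel, 0.847 for Wt1 and 0.843 for Synpo, against 0.369 for Nphs1, 0.345 for Podxl and −0.523 for Magi2. Without mouse 9 the values were 0.895, 0.808, 0.882, 0.609, 0.677 and −0.226 in the same order. Other lists had r of similar size. Kirrel had 0.844 with the parietal epithelial genes, 0.774 with the leukocyte genes and −0.840 with the proximal tubule genes, and Wt1 had 0.799 with the parietal epithelial and 0.789 with the tubular injury genes. Podxl had its highest r, 0.802, with the 9 endothelial genes, of which 4 were lower and 0 higher in PBS than in WT, beside 36.6% and 37.7% of all genes tested. Kdr, an endothelial receptor for VEGF, gave −1.05 (SE 0.24, adjusted p = 0.000226, edgeR), Ehd3 −0.73 (adjusted p = 7.97e-06) and Tek −0.73 (adjusted p = 0.00613).

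Genes listed for neighbouring glomerular cells, several of which other kidney cells also express, were counted in the same way, beside 37.7% of all genes tested that were higher and 36.6% that were lower in PBS than in WT. Of 6 parietal epithelial genes, 5 were higher and 0 lower with PBS, among them Cd44 (log2 fold change 3.42), Akap12 (1.86) and Cldn1 (1.21), and Akap12 was lower with RGLS4326 than with PBS by −0.42 (adjusted p = 0.0468, edgeR), or −0.37 (adjusted p = 0.0734) without mouse 9. Of 7 mesangial genes, 5 were higher and 2 lower with PBS, with Gata3 at 1.36, Des at 1.20 and Fhl2 at 0.85, and Gata3 was lower with RGLS4326 by −0.33 (adjusted p = 0.0421), or −0.29 (adjusted p = 0.0684) without mouse 9. The 2 lower genes, named after their values were seen, were the renin gene Ren1 at −2.10 (adjusted p = 7.27e-06, edgeR) and the integrin gene Itga8 at −0.84 (adjusted p = 0.00158). The 7 leukocyte genes were all higher with PBS, with Lyz2 at 2.53, Cd68 at 2.21 and Cd3e at 2.14; their summed CPM was 42.1 to 72.1 in WT and 200 to 391 with PBS. All 5 tubular injury genes were higher, with Vcam1 at 3.23, Spp1 at 2.77 and Krt20 at 5.14. All 7 proximal tubule genes were lower, with Slc22a6 at −1.25, Slc4a4 at −1.11 and Slc34a1 at −1.21. With RGLS4326 against PBS, 3 of them were higher, beside 9.15% of all genes tested. Without mouse 9 it was 1 (Slc22a6), where 8.14% of all genes passed in either direction. Of 6 genes of the thick limb and distal nephron, 2 were higher and 2 lower with PBS, near the shares of all genes, with Aqp2, the collecting duct water channel, at 2.30, Scnn1b at 1.20 and Slc12a3 at −0.68. The collecting duct genes Aqp2 and Scnn1b were lower with RGLS4326 than with PBS by −0.56 and −0.41 (adjusted p = 0.0265 and 0.00989, edgeR), and by −0.50 and −0.36 (adjusted p = 0.0395 and 0.00807) without mouse 9. The other genes named here with a value for PBS against WT passed as well (adjusted p of 6.64e-06 or lower, edgeR).

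Other genes listed for podocytes, kept in 5 lists of 48 genes of which 47 were tested, moved in both directions against WT. Not all of them varied with the members between mice. With group means taken off, r with the mean of the 8 members was 0.775 for Foxc2 and 0.766 for Inf2. It was −0.406 for Bmp7 and −0.383 for Vegfa. In bulk kidney, differences of these lists therefore cannot be assigned to podocytes. In PBS against WT, 22 (46.8%) were higher and 10 (21.3%) lower, beside 37.7% and 36.6% of all genes tested, with a median log2 fold change of 0.18. With library totals alone, 34 were higher and 4 lower. Without scaling the median gene stood 0.35 higher in PBS than in WT on the log2 scale, and 78.3% of all genes passed in either direction. With RGLS4326 against PBS, 0 were higher and 8 of 47 lower, beside 9.15% and 6.66% of all genes tested, with a median of −0.07. The lower ones were 5 without mouse 9 and 20 with library totals alone. Of all genes tested, 8.14% and 30.8% passed in either direction in these fits, beside 15.8% with all mice and scaling. Among 11 slit diaphragm genes tested, 5 were higher and 1 lower than WT. Fat1, a giant protocadherin of the slit diaphragm, was higher by 0.53 (adjusted p = 1.32e-05, edgeR) and Plce1, a phospholipase mutated in nephrotic syndrome, by 0.67 (adjusted p = 8.99e-05), whereas the polarity gene Pard3 was lower by −0.36 (adjusted p = 4.23e-07). Fat1 and Plce1 were lower with RGLS4326 than with PBS by −0.24 and −0.28 (adjusted p = 0.0252 and 0.049, edgeR). Without mouse 9, Fat1 still passed (−0.22, adjusted p = 0.0411) and Plce1 did not (−0.25, adjusted p = 0.0801). Among 11 foot process cytoskeleton genes, 4 were higher and 1 lower than WT, with the motor gene Myo1e at 0.64, the formin gene Inf2 at 0.996 and Plekhh2 at 1.03. Myo1e was the 1 gene of that list that passed between RGLS4326 and PBS, at −0.18 (adjusted p = 0.0352, edgeR), and it did not pass without mouse 9 (−0.15, adjusted p = 0.0561). With library totals alone 7 of the list were lower, where 30.8% of all genes passed in either direction.

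Of 6 podocyte transcription factor genes other than Wt1, 5 were higher and 0 lower in PBS than in WT, beside 37.7% and 36.6% of all genes tested, among them Tcf21 (8.87 ± 1.22 CPM in WT and 21.7 ± 5.90 CPM with PBS, log2 fold change 1.29, adjusted p = 4.16e-06, edgeR) and Foxc2 (0.86, adjusted p = 0.000165). None of the 6 passed between RGLS4326 and PBS in this test, where Foxd1 had the smallest unadjusted p-value (−0.37, adjusted p = 0.175, edgeR). Of 10 genes of the basement membrane and of adhesion to it, 7 were higher and 3 lower in PBS than in WT, beside the same shares, and 5 were lower with RGLS4326 than with PBS, beside 6.66% of all genes tested. With library totals alone 7 were lower with RGLS4326, where 30.8% of all genes passed in either direction. The 3 lower than WT, named after their values were seen, were the type IV collagen genes of the glomerular basement membrane Col4a3 (−0.72), Col4a4 (−0.74) and Col4a5 (−0.41), with adjusted p of 0.000221, 7.31e-06 and 0.000877 (edgeR), and none of them passed between RGLS4326 and PBS. The integrin subunit gene Itga3 read 57.9 ± 7.67 CPM in WT, 109 ± 22.6 CPM with PBS and 83.9 ± 11.9 CPM with RGLS4326, a difference of −0.38 from PBS (SE 0.093, adjusted p = 0.0141, edgeR). Npnt, which encodes nephronectin, gave −0.49 (adjusted p = 0.0087), Dag1, dystroglycan, −0.31 (adjusted p = 0.00356), Agrn, agrin, −0.31 (adjusted p = 0.0222) and Lamb2, laminin β2, −0.18 (adjusted p = 0.0352). Without RGLS4326 mouse 9, 4 of the 10 were lower, and Lamb2 did not pass (adjusted p = 0.0547, edgeR). In that fit 8.14% of all genes passed in either direction. Collecting duct and tubule cells also express several of these matrix genes. The collecting duct genes Scnn1b (−0.41, adjusted p = 0.00989, edgeR) and Aqp2 (−0.56, adjusted p = 0.0265) were lower in the same comparison, with and without mouse 9, and their part in the matrix difference was not tested.

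Of 9 genes listed for surface and secreted products of podocytes, 5 were lower and 1 higher in PBS than in WT, beside 36.6% and 37.7% of all genes tested, with a median log2 fold change of −0.30. With library totals alone 1 was lower and 3 were higher, and the median was 0.07. Vegfa, which podocytes and tubules make for the neighbouring capillaries, read 390 ± 18.4 CPM in WT, 260 ± 36.6 CPM with PBS and 294 ± 38.5 CPM with RGLS4326; it was lower by −0.58 in PBS against WT (SE 0.095, adjusted p = 3.04e-06, edgeR), and gave 0.17 (adjusted p = 0.0839) for RGLS4326 against PBS. Bmp7 was lower by −0.30 (adjusted p = 0.000452), and Pdpn, which encodes podoplanin, was higher by 1.46 (adjusted p = 1.71e-05). None of the 9 passed between RGLS4326 and PBS, where Pdpn gave −0.43 (adjusted p = 0.0809, edgeR) and Enpep 0.16 (adjusted p = 0.251). With library totals alone, without scaling factors, the higher and lower counts against WT were 10 and 0 of the 11 slit diaphragm genes, 9 and 1 of the 11 cytoskeleton genes, 5 and 0 of the 6 transcription factors and 7 and 2 of the 10 matrix genes. In that fit 78.3% of all genes passed in either direction and the median gene stood 0.35 higher in PBS, so these counts are not particular to the lists.

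Within each Pcy/CD1 group, the members were set against Lcn2, which encodes the tubular injury marker NGAL, to see which of them varied with it between mice of the same group. Of 16 relations, 6 had a permutation p-value, adjusted over the 16, under 0.05. The share of all genes that would pass was not computed, so the count is not particular to the members. With RLE size factors in place of TMM, only Kirrel, Wt1 and Magi2 with RGLS4326 passed (adjusted permutation p = 0.00432, 0.00472 and 0.0222). In the PBS mice (n = 12), Synpo had Pearson's r = 0.697 and Spearman's rho = 0.741 (permutation p = 0.0146 and 0.00791, adjusted p of r 0.0467), and Wt1 had r = 0.676 and rho = 0.734 (permutation p = 0.0187 and 0.00875, adjusted 0.0499). Kirrel had r = 0.620 and rho = 0.650 (permutation p = 0.0338 and 0.0256, adjusted 0.0773). Leaving out the 2 mice farthest from the median Lcn2 level gave r of 0.631, 0.629 and 0.583 in this order. Nphs1 (r = 0.0965, rho = 0.273, permutation p = 0.767 and 0.392, adjusted 0.848) and Podxl (r = −0.102, rho = 0.0140, permutation p = 0.753 and 0.974, adjusted 0.848) did not pass in these 12 mice.

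In the RGLS4326 mice (n = 14), r with Lcn2 was 0.815 for Kirrel, 0.771 for Wt1, 0.609 for Synpo and −0.808 for Magi2 (permutation p = 0.00032, 0.00061, 0.0127 and 0.00376, adjusted 0.00488, 0.00488, 0.0467 and 0.0201), and rho was 0.719, 0.688, 0.684 and −0.565 (permutation p = 0.00526, 0.0087, 0.00893 and 0.0383). These values lean on mouse 9, which has far the lowest Lcn2. Without it r was 0.703 for Kirrel, 0.668 for Wt1, 0.581 for Synpo and −0.469 for Magi2 (permutation p = 0.00914, 0.0153, 0.0378 and 0.107), and 0 of the 16 relations passed the adjustment, the lowest adjusted p being 0.0748. Leaving out the 2 mice farthest from the median gave 0.651, 0.631, 0.509 and −0.570. An index series holds 4 or 5 mice of a group, too few for a value of its own. The series means were therefore taken off, with and without mouse 9, in settings chosen after the values were seen. With all mice, r for Kirrel was 0.736 with PBS and 0.842 with RGLS4326 (permutation p = 0.00802 and 0.00011), and 7 relations passed. These were Kirrel and Wt1 in both groups, Synpo with PBS, and Magi2 and Podxl with RGLS4326, where Synpo did not pass (adjusted p = 0.0846). Podxl in the RGLS4326 mice had r = −0.416 over all 14 mice (permutation p = 0.127, adjusted 0.203), −0.600 with the series means taken off (permutation p = 0.0169, adjusted 0.0386) and −0.289 without mouse 9 as well (permutation p = 0.338, adjusted 0.601). With the series means taken off and mouse 9 left out, 4 relations passed, namely Wt1, Synpo and Kirrel with PBS and Kirrel with RGLS4326 (r = 0.728, permutation p = 0.00628, adjusted 0.0321).

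**Figure D5:**
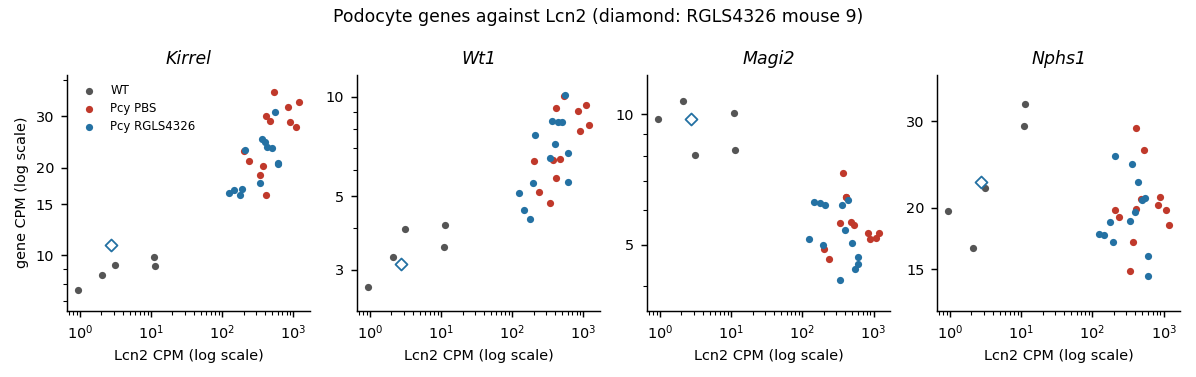
Each panel plots a member's CPM against the CPM of Lcn2, both on log axes, with a point per mouse in WT, Pcy/CD1 with PBS and Pcy/CD1 with RGLS4326, and RGLS4326 mouse 9 as an open diamond. Kirrel and Wt1 run upward with Lcn2 among the 12 PBS mice (r of 0.620 and 0.676, adjusted permutation p = 0.0773 and 0.0499, so Kirrel did not pass). Nphs1 does not (0.0965), and the diamond lies with the WT points at 2.76 CPM of Lcn2.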

How the data were processed

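Kidney polyA RNA of 31 mice was sequenced from stranded libraries. The authors trimmed reads with Trim Galore, mapped them with STAR to GRCm38 and counted uniquely mapped reads per gene with HTSeq 0.6.1; FastQC 0.11.2, SAMtools 1.1 and Picard 1.119 also stand in the submitters' processing notes. The deposited values are raw counts per gene, and HTSeq's tally lines (26.9% to 31.1% of each file's total) were left out. Genes passing filterByExpr were tested with edgeR 4.0.16 in R 4.3.3 (TMM, quasi-likelihood, 1 coefficient per group, all mice), and a gene was called at an adjusted p under 0.05. SE is the absolute log2 fold change over the square root of F. CPM are counts per 1000000 of the TMM-scaled library, with a prior count of 2 for log2 values in correlations. Correlations with Lcn2 used 100000 two-sided permutations of mice within a group and Python 3.11.15, numpy 2.4.6 and scipy 1.17.1. DESeq2 1.42.0, RLE factors, no filter, 2 groups only, index series, replicate block and left-out mice were the alternatives. The scripts were tested on simulated data. Adgre1 was matched by its older symbol Emr1. The members and lists were chosen with earlier results of these data known, and the ratio to Nphs1 and the correlations with other cell types' lists after values were seen. Besides the members and Lcn2, genes are named by a rule: per list the 3 with the smallest p in PBS against WT and in RGLS4326 against PBS, and the 10 genes most like the members' mean; some genes that this rule names are not reported here. Seed matches were sought in the longest annotated 3′ untranslated region of each protein-coding gene. Counting error, which is largest for the least covered members, and the number of mice limit the precision.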

Additional observations from a re-analysis of the deposited data

How the results depend on the processing

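With RGLS4326 against PBS, the 1 member passing (Kirrel) became 0 with RLE factors (adjusted p = 0.0509, edgeR), with no filter on low counts, with only the 2 groups compared, with a size threshold, within index series 1, 2 and 3, without RGLS4326 mouse 9 and with the replicate number as a block, and 2 (Kirrel and Synpo) with library totals only. Within each index series 0 genes of all tested passed, so the loss of Kirrel there says nothing about Kirrel itself. Of all genes tested, 15.8% passed with all mice, 8.14% without mouse 9, 2.15% with the size threshold, 2% with the replicate block and 30.8% with library totals only. Fits that each left out 1 mouse gave 0 to 2 members. For PBS against WT, 5 members became 2 within index series 2 and 5 to 7 when a single mouse was dropped. For RGLS4326 against WT, 5 became 0 within index series 2 and 4 to 7 when a single mouse was dropped. Of all genes tested, 45.5% (PBS) and 2.58% (RGLS4326) passed against WT within index series 2, beside 74.3% and 64.9% with all mice. With DESeq2 the counts stayed within 1.5 times. The replicate block gave 5, 0 and 4 members (Kirrel −0.33, adjusted p = 0.128, with RGLS4326 against PBS; Ptpro lost against WT, adjusted p = 0.0601, edgeR). Numbers are given in the labels, but same-numbered PBS and RGLS4326 mice did not deviate together (r from −0.416 to 0.435, mean −0.0554, over 0.1 in 4 of 12 pairs, own number the best partner in 2), so they share only a number. The Lcn2 relations passing went from 6 to 3 with RLE factors and to 0 without RGLS4326 mouse 9, and were 7 with the index series means taken off and 4 without mouse 9 as well.

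Signs of uncalled differences turned as follows. With library totals only, PBS against WT was 0.15 for both Nphs1 and Podxl, and Magi2 with RGLS4326 against PBS was −0.11. In index series 1, PBS against WT was 0.24 for Nphs1 and 0.14 for Podxl, RGLS4326 against WT was 0.26 for Nphs1 and 0.11 for Podxl, and RGLS4326 against PBS was 0.0215 for Nphs1 and 0.12 for Wt1. In index series 2, RGLS4326 against WT was −0.28 for Cdkn1c and −0.0306 for Ptpro, which was called over all mice. In index series 3, RGLS4326 against PBS was 0.0216 for Podxl and −0.11 for Magi2. Without RGLS4326 mouse 9 Magi2 was −0.0734 in that comparison. Between RGLS4326 and PBS, Magi2 turned negative in 10 of the 26 fits that each left out 1 Pcy/CD1 mouse, mouse 9 included, and Nphs1 turned to 0.00059 without PBS mouse 6. The causes were not tested. Of the other single-gene values, leaving aside the fits without 1 Pcy/CD1 mouse other than mouse 9, 295 kept their direction and their side of the threshold, 21 were no longer called and 14 became called. In all fits without 1 Pcy/CD1 mouse, these numbers were 372, 21 and 12, and 11 values turned. Counts of 45 to 223 reads limit Wt1, and 5 WT mice limit every comparison with WT.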
